A study of Mus musculus with 9 samples.

Results

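The collagen genes were described as a family in mouse embryonic fibroblasts (MEFs), taken as every gene whose symbol reads Col, a number, a and a number. The rule found 44 collagen chains among the 47937 genes of the count table, and the rule reads symbols alone. RNA-seq libraries of total RNA had been made from 3 genotypes with 3 libraries each. The line called WT is the Eset1-conditional MEF clone E1c, so the mutants derived from it carry the conditional Eset1 allele as well, and the labels name no tamoxifen treatment. The S1S2 line lacks Suv39h1 and Suv39h2, and the G9Gl line lacks G9a and Glp, 2 pairs of histone H3 lysine 9 methyltransferases disrupted with CRISPR/Cas9. Each mutant is 1 clone, selected by western blot for loss of both proteins, so genotype and clone cannot be told apart in any comparison below. The study describes the libraries of a line as biological replicates, taken here as separate cultures. The p-values test differences between lines against the spread between these cultures.

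Collagens are triple-helical proteins of the extracellular matrix, each built from 3 polypeptide chains that may be products of different genes. Fibrillar collagens form the banded fibrils of connective tissue, type IV forms the network of basement membranes, type VI forms beaded filaments, and FACIT collagens (fibril-associated collagens with interrupted triple helices) sit on the surface of fibrils. Chains are hydroxylated and folded in the endoplasmic reticulum, trimmed of their propeptides outside the cell, and cross-linked by lysyl oxidases. Fibroblasts are a main source of fibrillar and type VI collagen.

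The libraries held 21319778 to 32157623 gene counts, with the S1S2 libraries the smallest. Levels are in CPM, the counts of a gene relative to all gene counts of its library with TMM factors applied. Levels of different chains are ranked and set in ratio as CPM per kb of the principal coding transcript. Marker sums, level limits and the choice of a chain to leave out of a sum use CPM, which is not corrected for length. Differences are log2 fold changes from edgeR's quasi-likelihood test, with adjusted p-values over all 15540 genes tested and a standard error (SE) from the spread of the replicates. A gene is called, and said to have risen or fallen, when its adjusted p is 0.01 or less and its level differs 2-fold or more. The transcripts of Suv39h1 (log2 fold change -1.36 in S1S2), Ehmt2, encoding G9a (-1.20 in G9Gl), and Ehmt1, encoding Glp (-1.04), fell in their mutants. Suv39h2 transcripts were higher in the libraries labelled S1S2 (0.70, adjusted p = 3.01e-08), and since the clones were selected on protein these levels do not test the labels. Of the fibroblast markers Vim, Fn1 and Fbn1 had at least 429 CPM in every library, while Dcn was at most 7.70 CPM and Lum was at 0 in 8 of 9 libraries.

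The upstream bases of 5 chains are shown, those with the largest difference in any comparison among tested chains at 1 CPM or more in a genotype that have a single promoter entry clear of annotated exons. Sequences are the 250 bases before the RefSeq start (GRCm38.p6), 5′ to 3′ on the strand of the gene. Capitals mark CCAAT, the motif TATAAA and the motif GGGCGG on either strand, 3 motifs that do not overlap one another here.
Col11a1, chr3:114030290-114030539, plus strand: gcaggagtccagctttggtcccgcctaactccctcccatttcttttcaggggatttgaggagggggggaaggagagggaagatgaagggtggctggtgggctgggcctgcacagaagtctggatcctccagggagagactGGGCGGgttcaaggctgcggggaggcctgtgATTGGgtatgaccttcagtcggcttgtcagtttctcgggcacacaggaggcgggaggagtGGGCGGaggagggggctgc
Col6a3, chr1:90843972-90844221, minus strand: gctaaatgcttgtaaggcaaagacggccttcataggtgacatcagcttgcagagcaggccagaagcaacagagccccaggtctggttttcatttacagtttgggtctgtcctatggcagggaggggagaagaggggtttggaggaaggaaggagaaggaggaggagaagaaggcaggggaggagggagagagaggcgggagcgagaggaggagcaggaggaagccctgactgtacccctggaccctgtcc
Col3a1, chr1:45311288-45311537, plus strand: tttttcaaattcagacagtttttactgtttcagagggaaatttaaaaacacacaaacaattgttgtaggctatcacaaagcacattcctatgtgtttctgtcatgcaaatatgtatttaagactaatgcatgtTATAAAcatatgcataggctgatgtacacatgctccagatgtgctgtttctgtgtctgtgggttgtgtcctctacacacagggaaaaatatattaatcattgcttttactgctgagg
Col8a1, chr16:57754738-57754987, minus strand: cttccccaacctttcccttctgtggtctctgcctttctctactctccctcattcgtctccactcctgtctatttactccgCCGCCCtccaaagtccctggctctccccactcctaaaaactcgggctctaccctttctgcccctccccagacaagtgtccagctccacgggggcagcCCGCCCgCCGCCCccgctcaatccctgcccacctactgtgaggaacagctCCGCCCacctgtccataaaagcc
Col5a3, chr9:20815068-20815317, minus strand: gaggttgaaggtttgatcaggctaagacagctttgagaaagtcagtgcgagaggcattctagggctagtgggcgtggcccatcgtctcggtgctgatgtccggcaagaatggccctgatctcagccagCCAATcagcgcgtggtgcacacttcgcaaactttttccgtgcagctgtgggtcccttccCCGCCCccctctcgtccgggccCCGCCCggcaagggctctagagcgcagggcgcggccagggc
These 5 windows differ among themselves. The Col3a1 window holds 0 CpG and 1 TATAAA, the Col6a3 window 3 CpG and none of the 3 motifs, and the Col5a3 window 17 CpG, 1 CCAAT and 2 GGGCGG. The Col8a1 window holds 10 CpG and 4 GGGCGG, and the Col11a1 window 7 CpG, 1 CCAAT and 2 GGGCGG. Of the 32851 promoters of the same length in the RefSeq table, 33.85% hold CCAAT, 12.37% TATAAA and 32.74% GGGCGG, and the median is 6 CpG. Entries were found for 35 of the 44 chains, as 38 promoters. The 22 promoters of tested chains had a median of 10.5 CpG, with GGGCGG in 16, CCAAT in 9 and TATAAA in 2, and the 16 promoters of chains too low to test had a median of 8 CpG, with GGGCGG in 6, CCAAT in 4 and TATAAA in 3.

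Tested chains came from 7 of the 9 classes, counting unclassed chains as 1. After the filter on low counts 25 of the 44 chains were tested. The other 19 reached at most 22 counts in a library (0.709 CPM, Col6a5), and Col13a1 and Col26a1 had 0 counts in all 9 libraries. None of the 4 transmembrane chains (Col13a1, Col17a1, Col23a1, Col25a1) and neither unclassed chain (Col26a1, Col28a1) passed the filter. Type II (Col2a1) and type X (Col10a1), the collagens of cartilage, had at most 16 counts over the 3 libraries of a genotype, and Col9a1 and Col9a2 had 1 count each in WT and 0 in both mutants. By level per length, Col1a1 (574 CPM per kb), Col1a2 (448), Col3a1 (274) and Col5a2 (269) led in WT. In S1S2 the order was Col1a1 (446), Col5a2 (213), Col4a1 (129.7) and Col1a2 (73.9), with Col3a1 at rank 8 (34.1). In G9Gl it was Col5a2 (459), Col1a1 (422), Col1a2 (379) and Col4a1 (176).

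**Figure D1:**
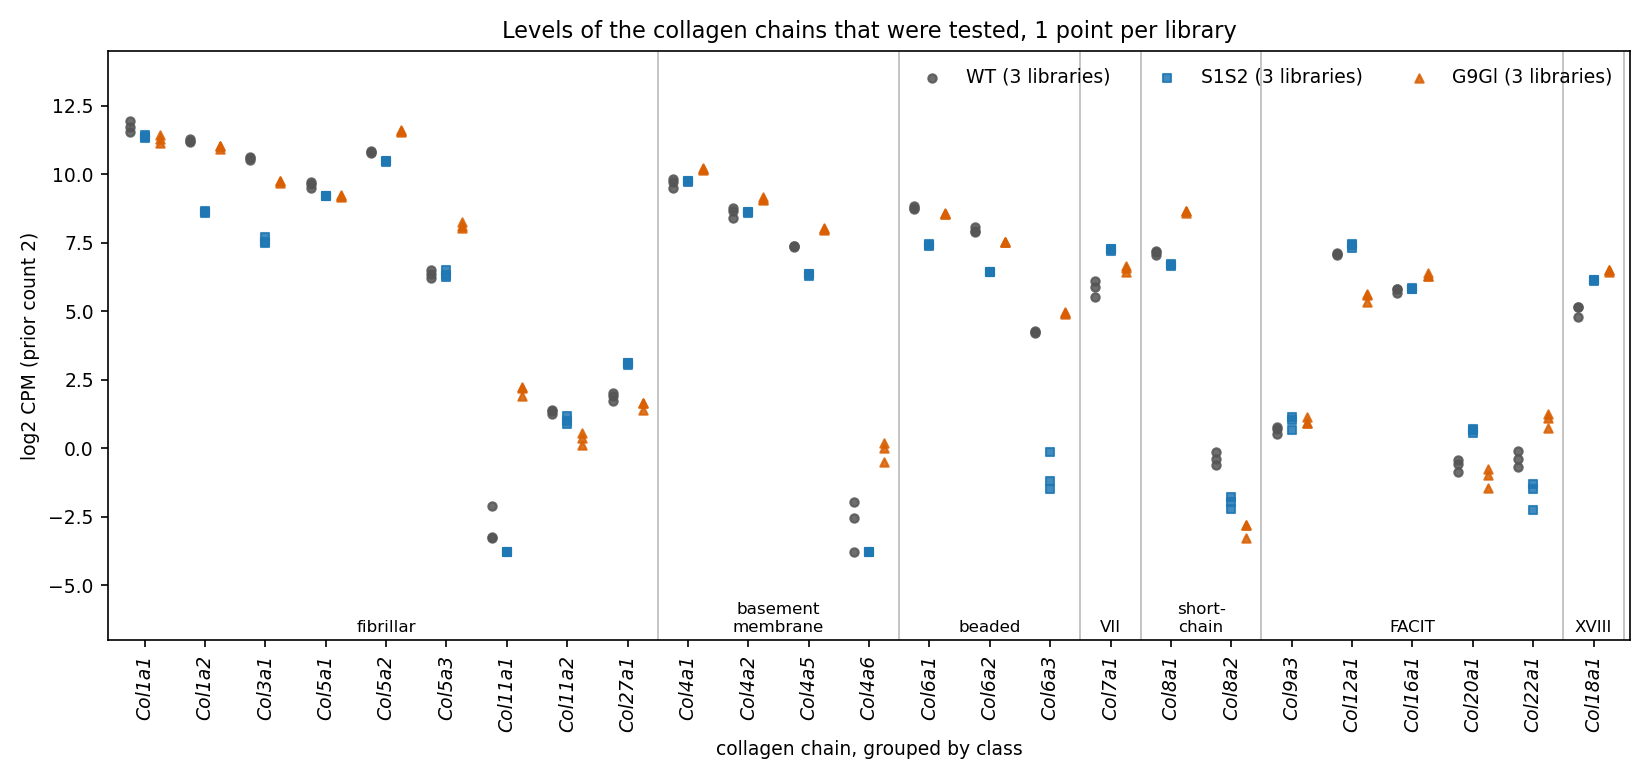
Level of each tested collagen chain in each library as log2 CPM with a prior count of 2 (vertical axis), with chains grouped by class along the horizontal axis and 1 point per library (WT circles, S1S2 squares, G9Gl triangles). Replicates lie close together for abundant chains, and S1S2 lies far below both other genotypes for Col1a2, Col3a1 and Col6a3.

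Against WT, S1S2 cells had less of the abundant Col1a2 (0.165 times the WT level) and Col3a1 (0.124 times), and of Col6a3 (0.0282 times), a chain of lower level in WT. G9Gl cells had more of Col5a3 (3.44 times WT), Col8a1 (2.84 times) and Col11a1, which was near 0 in WT, and less of Col12a1 (0.337 times). In S1S2, 12 of the 25 tested chains were called, 4 higher and 8 lower, where 9.0% of all tested genes were called (4.66% higher, 4.34% lower). In G9Gl, 9 chains were called against WT, 6 higher and 3 lower, where 10.2% of all tested genes were called (6.77% higher, 3.40% lower). Between the mutants 15 chains were called, 12 higher and 3 lower in G9Gl, where 13.1% of all tested genes were called (7.97% higher, 5.08% lower). Among genes at 10 CPM or more in a genotype, a class that holds 17 of the 25 chains, 8, 4 and 10 chains were called in these comparisons, where the shares of all genes called were 5.08%, 4.97% and 6.79%. Col11a1 and Col4a6 passed the filter on low counts through their G9Gl libraries alone and Col8a2 through its WT libraries alone, so each had to differ to be tested. The other 22 chains had 11 calls in S1S2, 6 in G9Gl and 13 between the mutants. Under glmTreat, which tests for a change beyond 2-fold, 6 of the 12 S1S2 calls were lost, those of Col27a1, Col4a5, Col8a2, Col18a1, Col20a1 and Col22a1 (adjusted p 0.0774 to 0.916). It also ended the G9Gl calls of Col11a2 (adjusted p = 1) and Col22a1 (0.124) and the calls between the mutants of Col5a2 (0.0236), Col6a2 (0.0915) and Col20a1 (0.0140). Both comparisons with WT use the same 3 WT libraries, so their values are given side by side and not as separate evidence. The 6 tested chains called in no comparison were Col1a1, Col5a1, Col4a1, Col4a2, Col9a3 and Col16a1.

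Looser limits were also applied, and their counts include the called chains. With the p limit alone, 5 chains were higher and 12 lower in S1S2, where 37.9% of all tested genes passed (20.3% higher, 17.6% lower). In G9Gl 13 were higher and 9 lower, where 35.0% of all tested genes passed (19% higher, 16% lower). With an adjusted p limit of 0.05 alone, 19 chains in S1S2, 22 in G9Gl and 22 between the mutants passed, where 48.9%, 45.9% and 53.3% of all tested genes did. The libraries of S1S2 and WT did not overlap for 19 of the 25 chains (56.0% of all tested genes) and those of G9Gl and WT for 24 (52.8%). The median log2 fold change of the tested chains was -0.36 in S1S2 and 0.48 in G9Gl, against medians of -0.0032 and -0.0067 over all tested genes, and setting the 2 chains without a count in S1S2 to their bounds left the S1S2 median at -0.36. In bulk RNA, fewer cells that express a chain and less RNA per cell cannot be told apart.

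**Figure D2:**
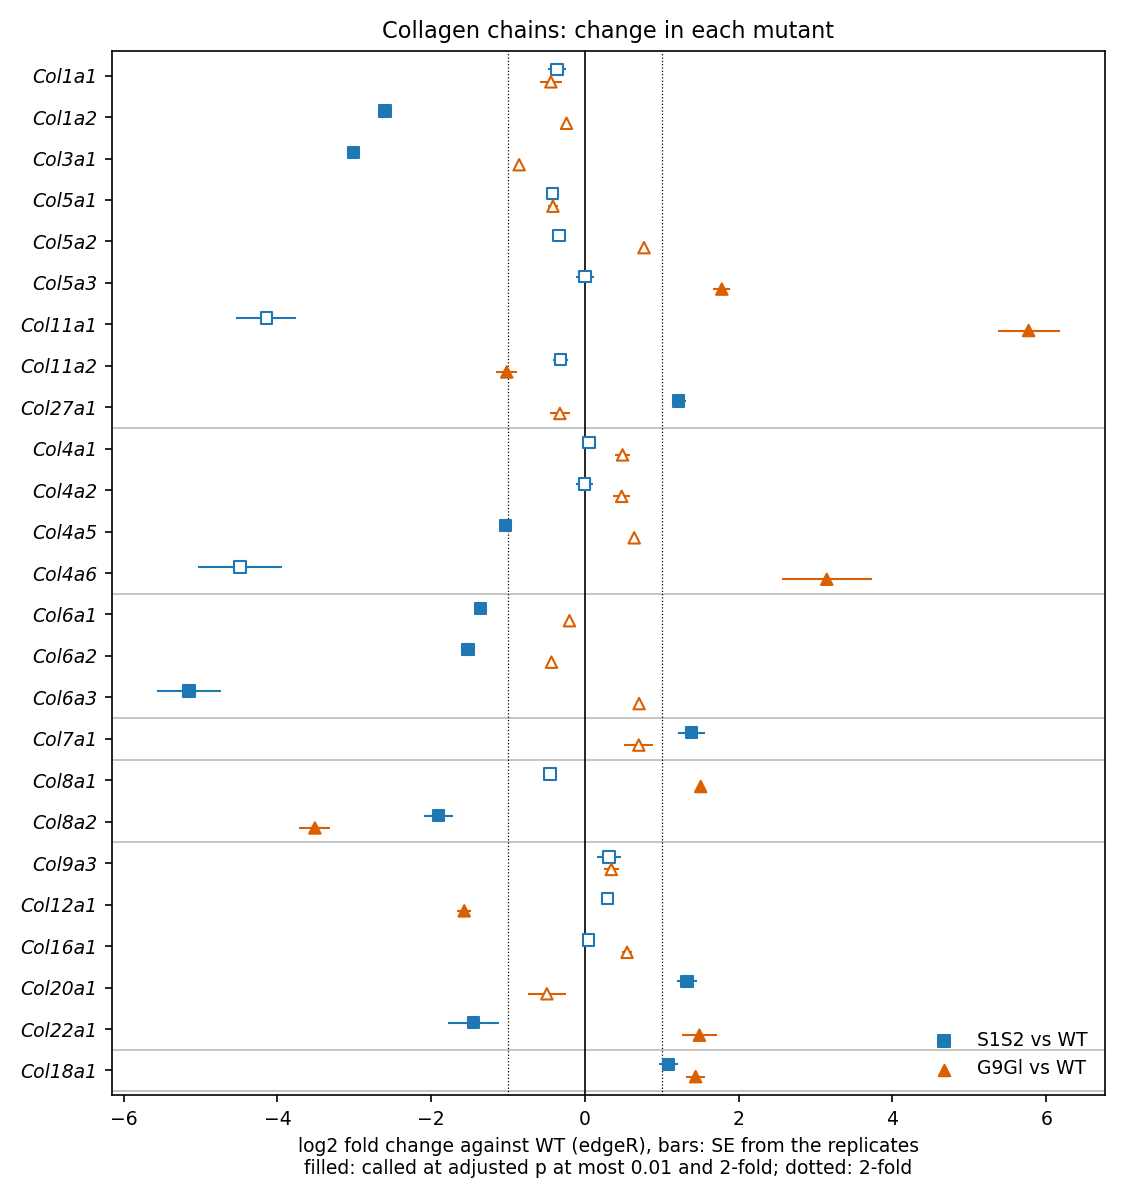
Log2 fold change against WT (horizontal axis) of the 25 tested chains by class, with bars for the SE from 3 libraries a genotype, squares for S1S2 and triangles for G9Gl. Filled symbols are called, 12 in S1S2 and 9 in G9Gl; the dotted lines mark a 2-fold change, and the fitted values of Col11a1 and Col4a6 in S1S2 rest on 0 counts.

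Type I collagen, the main fibril-forming collagen of skin, bone and tendon, is a trimer of mostly 2 chains from Col1a1 and 1 from Col1a2. Col1a2 (ENSMUSG00000029661.16, chr6:4504814-4541544, plus strand) stood at 2383, 2490.3 and 2309.7 CPM in the WT libraries, 384, 394 and 407 CPM in S1S2 and 1939.8, 2084 and 2061 CPM in G9Gl. The 3 S1S2 libraries lay far below all others, and G9Gl lay just below WT without overlap. Col1a2 fell in S1S2 with a log2 fold change of -2.60 (adjusted p = 7.51e-17, SE 0.0403), had a log2 fold change of -0.24 (adjusted p = 3.30e-04, SE 0.0450) in G9Gl, and was higher in G9Gl than in S1S2 with a log2 fold change of 2.36 (adjusted p = 8.93e-17, SE 0.0408). Col1a1 (ENSMUSG00000001506.10, chr11:94936224-94953042, plus strand) had 3338, 3892 and 2979 CPM in WT, 2597, 2576 and 2754 CPM in S1S2 and 2268, 2765 and 2479 CPM in G9Gl. Both mutants lay below WT without overlap, while they overlapped each other. Its log2 fold changes of -0.36 (adjusted p = 0.00108, SE 0.116) in S1S2 and -0.44 (adjusted p = 2.02e-04, SE 0.139) in G9Gl stayed under the fold limit.

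Type III collagen, a homotrimer from Col3a1 found with type I in elastic tissues such as vessel wall, was lower in both mutants than in WT. Col3a1 (ENSMUSG00000026043.18, chr1:45311538-45349706, plus strand), whose upstream window is the one without CpG above, had 1479, 1559 and 1542 CPM in WT, 181, 182 and 207 CPM in S1S2 and 820.3, 861 and 850.4 CPM in G9Gl. The 3 genotypes did not overlap, with WT highest and S1S2 lowest. Col3a1 fell in S1S2 with a log2 fold change of -3.01 (adjusted p = 5.74e-17, SE 0.0673). It was lower in G9Gl with a log2 fold change of -0.86 (adjusted p = 2.13e-10, SE 0.0312), under the fold limit, and differed between the mutants with a log2 fold change of 2.15 (adjusted p = 9.96e-16, SE 0.0665). Its neighbour Col5a2 lies tail to tail with it, 24614 bp away on chromosome 1. An annotated gene on the same strand, Gm47302, overlaps the exons of Col3a1. Of the 75-base stretches of Col3a1 transcripts, 0.672% also occur in other genes.

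Type V collagen starts fibrils and limits their diameter. Col5a2 (ENSMUSG00000026042.16, chr1:45374321-45503282, minus strand) had 1758, 1824 and 1769.8 CPM in WT, 1391, 1423 and 1420.4 CPM in S1S2 and 3019, 2981 and 3115 CPM in G9Gl. Every G9Gl library lay above and every S1S2 library below all WT libraries. The log2 fold changes were -0.34 (adjusted p = 2.79e-06, SE 0.0195) in S1S2 and 0.77 (adjusted p = 5.92e-11, SE 0.0249) in G9Gl, neither of them called, while the difference between the mutants of 1.11 (adjusted p = 3.28e-13, SE 0.0216) was called. Col5a3 (ENSMUSG00000004098.7, chr9:20770050-20815067, minus strand) was the 1 type V chain called in G9Gl against WT, with 81.6, 90.7 and 73.5 CPM in WT, 76.2, 79.95 and 89.7 CPM in S1S2 and 261, 307 and 276 CPM in G9Gl. WT and S1S2 overlapped, and the G9Gl libraries lay above both, with a log2 fold change of 1.78 (adjusted p = 2.18e-12, SE 0.112) against WT and 1.78 (adjusted p = 1.91e-12, SE 0.0983) against S1S2. Col5a1, which contributes to nearly all type V trimers, had 786 ± 59.01 CPM in WT, 588 ± 5.34 CPM in S1S2 and 589.5 ± 20.6 CPM in G9Gl (SD, n = 3). Its log2 fold changes were -0.42 (adjusted p = 2.30e-06, SE 0.0635) and -0.42 (adjusted p = 2.35e-06, SE 0.0694), and its exons overlap the antisense genes 2810430I11Rik and Gm13372.

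The minor fibrillar chains Col11a1, Col11a2 and Col27a1 were low. Type XI is the cartilage relative of type V. Col11a1 (ENSMUSG00000027966.19, chr3:114030540-114220718, plus strand) had 0.0307, 0.0330 and 0.161 CPM in WT, 0 counts in all 3 S1S2 libraries and 4.66, 3.70 and 4.57 CPM in G9Gl. Only the G9Gl libraries stood clear of 0, with WT at 7 counts over its 3 libraries. Col11a1, tested through its G9Gl libraries alone, rose in G9Gl with a log2 fold change of 5.77 (adjusted p = 2.34e-09, SE 0.404) against WT, and was at least 101-fold higher than in S1S2 when the latter was set to the floor of 3 counts over the group. Of the 7 WT counts 5 lay in WT replicate 3, and without it the log2 fold change against WT was 6.89. Of the cartilage markers, Acan had at most 0.0326 CPM in a G9Gl library, Matn1 and Hapln1 were at 0 there, and Sox9, which is not specific to cartilage, had 1.82 to 2.48 CPM. The 5 cartilage markers, nearly all Sox9, summed to 2.16 to 2.61 CPM in WT, 2.91 to 3.21 CPM in S1S2 and 1.93 to 2.62 CPM in G9Gl.

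Col11a2 went the other way, with 2.58, 2.28 and 2.48 CPM in WT, 2.21, 1.78 and 1.93 CPM in S1S2 and 1.40, 1.22 and 1.01 CPM in G9Gl. The G9Gl libraries were lowest and WT highest, without overlap. Col11a2 fell in G9Gl with a log2 fold change of -1.02 (adjusted p = 2.58e-04, SE 0.139), a call that was lost without WT replicate 1 (-0.98) or without G9Gl replicate 3 (-0.90). Col27a1, encoding a fibrillar chain of cartilage and developing tissues, had 3.63, 3.998 and 3.22 CPM in WT, 8.22, 8.45 and 8.60 CPM in S1S2 and 2.53, 3.09 and 3.03 CPM in G9Gl. Here S1S2 was the high genotype, and Col27a1 rose with a log2 fold change of 1.22 (adjusted p = 2.84e-07, SE 0.0903) there.

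All 3 tested chains of type VI collagen fell in S1S2, and 0 were called in G9Gl against WT by edgeR or DESeq2, where all 3 had an unadjusted p under 0.05. Of all tested genes 9.0% were called in S1S2 and 10.2% in G9Gl, and 52.4% had an unadjusted p under 0.05 in G9Gl. Type VI is assembled from Col6a1, Col6a2 and a further chain, usually Col6a3, and links cells to the fibrillar matrix. Col6a3 (ENSMUSG00000048126.16, chr1:90765923-90843971, minus strand) had 18.7, 19.1 and 18.5 CPM in WT, 0.368, 0.838 and 0.282 CPM in S1S2 and 30.3, 31.3 and 30.04 CPM in G9Gl. The S1S2 libraries were close to 0, and the G9Gl libraries lay above all WT libraries. Col6a3 fell in S1S2 with a log2 fold change of -5.15 (adjusted p = 8.43e-14, SE 0.412), and its log2 fold change in G9Gl was 0.70 (adjusted p = 2.16e-06, SE 0.0234). Between the mutants it differed with a log2 fold change of 5.86 (adjusted p = 2.74e-15, SE 0.413). The S1S2 libraries held 8, 23 and 6 counts, and without S1S2 replicate 2 these log2 fold changes were -5.83 and 6.54. Col6a4, Col6a5 and Col6a6, chains that can take the place of Col6a3, stayed under the filter on low counts, with 11, 5 and 0 counts over the S1S2 libraries.

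Col6a1 and Col6a2 also fell in S1S2. Col6a1 (ENSMUSG00000001119.7, chr10:76708792-76726168, minus strand) had 432, 455 and 423 CPM in WT, 165, 171 and 175 CPM in S1S2 and 374, 388 and 377 CPM in G9Gl. Col6a2, 85161 bp away on the same strand, had 244, 266 and 238 CPM, 87.1, 86.8 and 86.4 CPM and 186, 185 and 182 CPM. In both, S1S2 was lowest, G9Gl intermediate and WT highest, with no overlap. Col6a1 fell in S1S2 with a log2 fold change of -1.36 (adjusted p = 6.90e-14, SE 0.0407). Col6a2 fell there with a log2 fold change of -1.52 (adjusted p = 4.35e-14, SE 0.0493). Both were higher in G9Gl than in S1S2, Col6a1 by 1.16 and Col6a2 by 1.09. These 2 calls were lost (0.96 and 0.89) once the median of all tested genes on the same chromosome was removed, which was 0.19 for chromosome 10 in that comparison.

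Type IV collagen, the network former of basement membranes, had 4 tested chains, of which 1 was called in S1S2 and 1 in G9Gl (9.0% and 10.2% of all tested genes). Col4a1 had 845, 909.9 and 729 CPM in WT, 866, 865 and 844 CPM in S1S2 and 1130.4, 1165 and 1192 CPM in G9Gl. Its partner Col4a2 had 408, 437 and 340.2 CPM, 397, 385 and 397 CPM and 531, 573 and 546 CPM. For both chains S1S2 overlapped WT and the G9Gl libraries lay above all others. The log2 fold changes in G9Gl were 0.49 (adjusted p = 2.99e-06, SE 0.0964) for Col4a1 and 0.48 (adjusted p = 1.04e-05, SE 0.112) for Col4a2, and those in S1S2 were 0.05 (adjusted p = 0.507) and -0.01 (adjusted p = 0.951). These genes lie head to head on chromosome 8 and their annotated ends overlap by 22 bp, where reads cannot be told apart without strand.

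Col4a5 and Col4a6 form a second head-to-head pair, 1308 bp apart on the X chromosome. Col4a5 (ENSMUSG00000031274.16, chrX:141475385-141689234, plus strand) had 165, 166 and 162 CPM in WT, 77.04, 81.1 and 82.8 CPM in S1S2 and 256, 249 and 264 CPM in G9Gl. The libraries of S1S2 lay below and those of G9Gl above all WT libraries. Col4a5 fell in S1S2 with a log2 fold change of -1.03 (adjusted p = 2.97e-12, SE 0.0327), had a log2 fold change of 0.64 (adjusted p = 6.50e-10, SE 0.0262) in G9Gl and differed between the mutants with a log2 fold change of 1.68 (adjusted p = 1.75e-15, SE 0.0387). Col4a6 was near the floor, with 0.184, 0.0991 and 0 CPM in WT, 0 counts in every S1S2 library and 0.631, 0.933 and 1.08 CPM in G9Gl. The G9Gl libraries were above all others, and Col4a6, tested through these libraries alone, rose there with a log2 fold change of 3.15 (adjusted p = 1.74e-04, SE 0.582), being at least 20.7-fold higher than in S1S2. Without WT replicate 1 the log2 fold change against WT was 4.05. Col4a3 and Col4a4, the other head-to-head pair of the family, had at most 7 counts over the libraries of a genotype.

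Type VIII collagen is a short-chain network former of vessel wall and eye. Col8a1 (ENSMUSG00000068196.4, chr16:57624258-57754737, minus strand) had 141, 146 and 134 CPM in WT, 102, 101 and 104 CPM in S1S2 and 399.7, 408 and 388 CPM in G9Gl. G9Gl was high, S1S2 was low, and neither overlapped WT. Col8a1 rose in G9Gl with a log2 fold change of 1.51 (adjusted p = 1.09e-14, SE 0.0424), with a log2 fold change of -0.45 (adjusted p = 1.64e-07, SE 0.0400) in S1S2. Its partner Col8a2 had 0.830, 0.694 and 0.580 CPM in WT, 0.184, 0.219 and 0.141 CPM in S1S2 and 0.0701, 0.0718 and 0.0326 CPM in G9Gl. All mutant libraries were below WT. Col8a2, tested through its WT libraries alone, fell in both mutants, with a log2 fold change of -1.91 (adjusted p = 5.71e-04, SE 0.188) and -3.51 (adjusted p = 7.19e-06, SE 0.203), at a level of at most 27 counts in a library.

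Type VII, the anchoring fibril collagen that ties basement membrane to dermis, and type XVIII, the source of endostatin, were higher in both mutants than in WT. Col7a1 had 59.2, 69.4 and 45.6 CPM in WT, 156, 152 and 148 CPM in S1S2 and 86.3, 101 and 95.9 CPM in G9Gl. S1S2 was highest and WT lowest, without overlap. Mir711, annotated on the same strand, overlaps the exons of Col7a1. Col7a1 rose in S1S2 with a log2 fold change of 1.39 (adjusted p = 3.40e-09, SE 0.177) and had a log2 fold change of 0.70 (adjusted p = 1.42e-05, SE 0.188) in G9Gl. Col18a1 had 35.5, 35.5 and 27.8 CPM in WT, 70.4, 71.1 and 68.7 CPM in S1S2 and 86.2, 91.1 and 90.8 CPM in G9Gl. Both mutants lay above WT. It rose in both, with a log2 fold change of 1.09 (adjusted p = 1.43e-09, SE 0.119) in S1S2 and 1.44 (adjusted p = 2.05e-11, SE 0.121) in G9Gl, and the S1S2 call was lost at 0.98 without WT replicate 3, the lowest WT library. Its multiplexin relative Col15a1 had 0, 1 and 5 counts over the WT, S1S2 and G9Gl libraries.

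Of the 5 tested FACIT chains 2 were called in S1S2 and 2 in G9Gl, in each case 1 higher and 1 lower. Of all tested genes 4.66% were called higher and 4.34% lower in S1S2, and 6.77% and 3.40% in G9Gl. Col12a1 (ENSMUSG00000032332.17, chr9:79598991-79718831, minus strand), whose product coats type I fibrils, had 134, 137 and 140.2 CPM in WT, 173, 171 and 157 CPM in S1S2 and 40.5, 49.2 and 48.5 CPM in G9Gl. G9Gl was lowest and S1S2 highest, and no libraries overlapped between genotypes. Col12a1 fell in G9Gl with a log2 fold change of -1.57 (adjusted p = 1.08e-12, SE 0.0917), with a log2 fold change of 0.29 (adjusted p = 5.56e-04, SE 0.0484) in S1S2 and -1.86 (adjusted p = 8.55e-14, SE 0.0996) between the mutants. Col16a1 had 54.4 ± 3.08 CPM in WT, 56.1 ± 0.730 CPM in S1S2 and 79.5 ± 3.90 CPM in G9Gl (SD, n = 3), with a log2 fold change of 0.55 (adjusted p = 1.30e-07, SE 0.0626) in G9Gl. Col9a3, with its partner chains at 0 or 1 count in every genotype, had 1.35 to 2.11 CPM in all 9 libraries and was not called. The exons of Col9a3 and Col22a1 overlap antisense genes (Tcfl5 and Gm16308), and it is not known here whether counting used strand.

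Both remaining FACIT chains were low. Col20a1 had 0.676, 0.595 and 0.483 CPM in WT, 1.52, 1.38 and 1.55 CPM in S1S2 and 0.526, 0.431 and 0.294 CPM in G9Gl. S1S2 stood above both others, and Col20a1 rose there with a log2 fold change of 1.33 (adjusted p = 4.98e-04, SE 0.134); an annotated gene on the same strand, BX649560.1, overlaps its exons. Col22a1, a collagen of tissue junctions, had 0.553, 0.694 and 0.870 CPM in WT, 0.138, 0.328 and 0.282 CPM in S1S2 and 1.58, 2.08 and 2.28 CPM in G9Gl. S1S2 was lowest and G9Gl highest, without overlap. It rose in G9Gl with a log2 fold change of 1.49 (adjusted p = 1.14e-04, SE 0.230) and fell in S1S2 with a log2 fold change of -1.45 (adjusted p = 0.00463, SE 0.333). The S1S2 call was lost without WT replicate 3 (adjusted p = 0.0195), S1S2 replicate 1 (0.0278) or S1S2 replicate 3 (0.0115).

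Summed over all chains, collagen transcripts were lower in S1S2 and close to WT in G9Gl. They took 1.17% to 1.34% of the TMM-scaled count total in WT libraries, 0.738% to 0.761% in S1S2 and 1.21% to 1.29% in G9Gl. As level per length, the sums were 2099, 2272 and 1990.4 CPM per kb in WT, 1180.3, 1184 and 1222 CPM per kb in S1S2 and 2019, 2164 and 2115 CPM per kb in G9Gl. All S1S2 libraries were below all others, and G9Gl overlapped WT. The ratio of means was 0.564 for S1S2 and 0.990 for G9Gl, with no test because the sum is a score over the members. Without Col1a1, the chain with the highest mean CPM over the 3 genotypes, the ratios were 0.485 and 1.08.

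The make-up of the sum differed as well. Fibrillar chains made up 78.9% of the summed level per length in WT, 71.2% in S1S2 and 72.8% in G9Gl. Basement membrane chains took 9.97%, 16.98% and 14.3%, although their summed level in S1S2 (204, 203 and 202 CPM per kb) lay within the WT range (216, 231 and 188 CPM per kb). Type VI took 8.11%, 5.32% and 6.80%, and short-chain collagen, nearly all of it Col8a1, took 1.30%, 1.68% and 3.72%. The fibrillar sum itself was 1673 ± 110.0 CPM per kb in WT, 852 ± 23.9 in S1S2 and 1529 ± 63.4 in G9Gl (SD, n = 3).

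**Figure D3:**
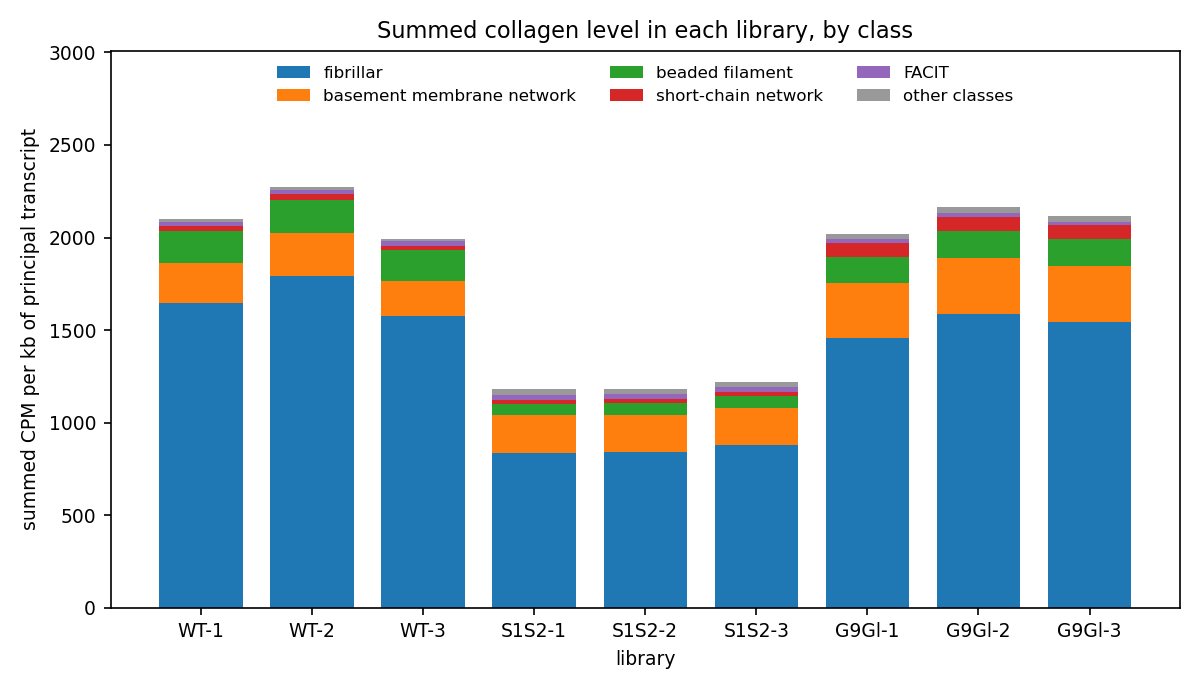
Summed collagen level in each of the 9 libraries as CPM per kb of principal transcript (vertical axis from 0), stacked by class. The S1S2 bars reach 1180.3 to 1222 CPM per kb, and those of WT and G9Gl reach 1990.4 to 2272.

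Ratios of partner chains within a library show how evenly chains of 1 protein moved, as ratios of CPM per kb. Col1a2 to Col1a1 was 0.791, 0.710 and 0.860 in WT, 0.164, 0.170 and 0.164 in S1S2 and 0.948, 0.836 and 0.922 in G9Gl. S1S2 stood apart, and G9Gl overlapped WT. Col6a3 to Col6a1 was 0.0197, 0.0191 and 0.0199 in WT, 0.00102, 0.00224 and 7.34e-04 in S1S2 and 0.0369, 0.0368 and 0.0363 in G9Gl. This ratio was lowest in S1S2 and highest in G9Gl, without overlap. Even in WT the Col6a3 transcript was far less abundant per length than Col6a1.

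Col4a2 to Col4a1 was 0.495, 0.492 and 0.478 in WT, 0.471, 0.457 and 0.482 in S1S2 and 0.482, 0.504 and 0.470 in G9Gl, and all genotypes overlapped. Col6a2 to Col6a1 had means of 0.593, 0.530 and 0.504. Col5a2 to Col5a1 had means of 2.89 in WT, 3.05 in S1S2 and 6.55 in G9Gl, where only G9Gl stood clear of WT, and Col5a3 to Col5a1, a pair added after the values were seen, had means of 0.143, 0.191 and 0.655. Col8a2 to Col8a1 was 0.00589, 0.00209 and 1.71e-04 on average. Col11a2 to Col11a1 went from 21.9 to 119 in WT to 0.315 to 0.469 in G9Gl and was undefined in S1S2, and the planned ratio of Col9a2 to Col9a3 was not computed because Col9a2 had 1 count in all. With 3 libraries against 3 an exact permutation test cannot go below p = 0.10, so none was run on these ratios.

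**Figure D4:**
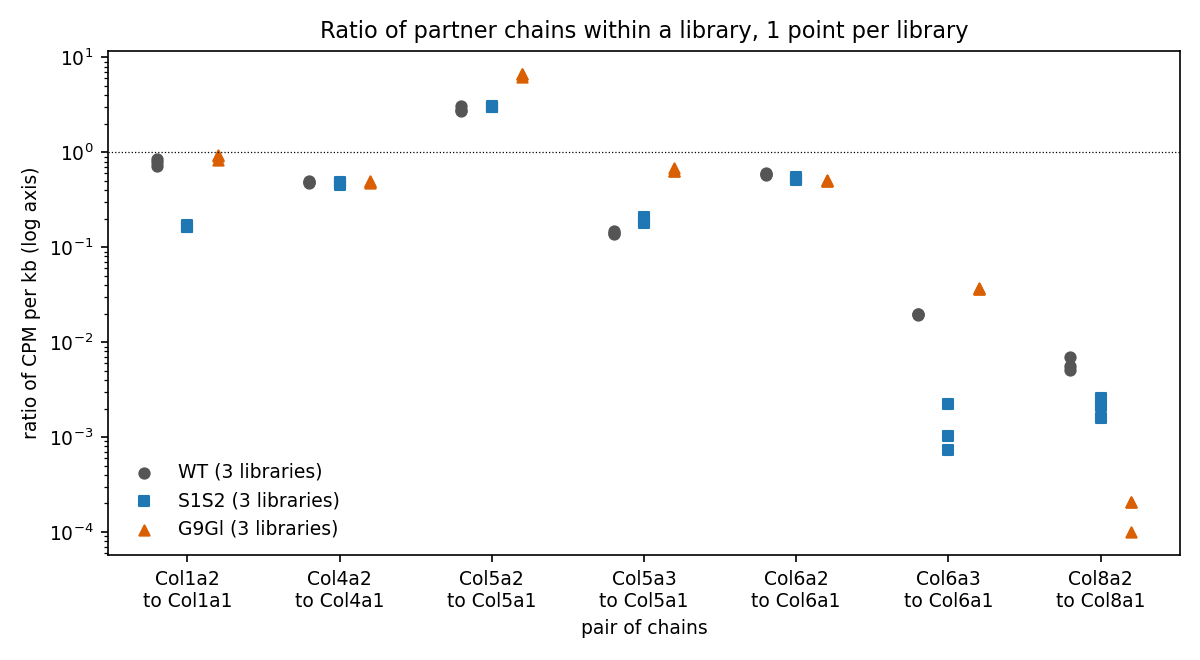
Ratio of the levels per length of 2 partner chains in each library (log axis) for 7 pairs, with WT as circles, S1S2 as squares and G9Gl as triangles and the dotted line at a ratio of 1. Col1a2 to Col1a1 is low in S1S2 at 0.164 to 0.170, while Col4a2 to Col4a1 lies between 0.457 and 0.504 in all libraries.

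Of 47 listed genes that modify, secrete, trim, cross-link or bind collagen, chosen with results of these data known, 42 were tested. Called were 4 in S1S2 (2 higher, 2 lower), 5 in G9Gl (3 higher, 2 lower) and 5 between the mutants (3 higher, 2 lower), which is 9.52%, 11.9% and 11.9% of the 42, beside 9.0%, 10.2% and 13.1% of all tested genes. With the p limit alone 57.1% passed in S1S2 and 61.9% in G9Gl, beside 37.9% and 35.0% of all tested genes, and libraries did not overlap for 73.8% and 81.0%, beside 56.0% and 52.8%. Their median log2 fold changes were -0.10 and -0.06 against WT. Itga2, called in each comparison, passed the filter on low counts through its G9Gl libraries alone. The other 41 tested genes had 3 calls in S1S2, 4 in G9Gl and 4 between the mutants, beside the shares above.

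In the endoplasmic reticulum group, 0 of 17 tested genes were called in S1S2 by edgeR or DESeq2, while 12 had an unadjusted p under 0.05 and 9 passed the p limit alone, 1 higher and 8 lower. Of all tested genes 9.0% were called in S1S2, 54.6% had an unadjusted p under 0.05 there and 37.9% passed the p limit alone. Serpinh1, the collagen chaperone Hsp47, had 1328, 1267 and 1273 CPM in WT, 988, 999 and 1037 CPM in S1S2 and 1262, 1193 and 1192 CPM in G9Gl. Its log2 fold change was -0.35 (adjusted p = 2.46e-06, SE 0.0304) in S1S2. P4ha1, a catalytic subunit of prolyl 4-hydroxylase, had 268, 257 and 303 CPM, 161, 163 and 156 CPM and 200.1, 207 and 219 CPM. Both mutants lay below WT, with a log2 fold change of -0.79 (adjusted p = 3.13e-09, SE 0.0750) in S1S2 and -0.40 (adjusted p = 8.97e-06, SE 0.0813) in G9Gl. Plod2, a lysyl hydroxylase, had a log2 fold change of -0.25 (adjusted p = 0.00811, SE 0.109) and 0.25 (adjusted p = 0.00688, SE 0.116). The hydroxylase genes P3h2 (2.34, 2.94 and 3.03 CPM in WT, 0.421, 0.790 and 0.652 CPM in G9Gl) and P4ha3 (1.48, 2.08 and 1.93 CPM and 0.772, 0.610 and 1.14 CPM) fell in G9Gl, with log2 fold changes of -2.15 (adjusted p = 6.04e-07) and -1.10 (adjusted p = 0.00127). Both were also called lower in G9Gl than in S1S2, at -1.50 and -1.0. The latter lies at the fold limit, and it was lost without S1S2 replicate 1 or 2 or G9Gl replicate 1 or 2 (-0.82 to -0.97), with DESeq2 size factors in edgeR (-0.997) and with no filter on low counts (-0.987). Without G9Gl replicate 2 the P4ha3 call against WT was lost (-0.92). Of the 6 genes for export from the endoplasmic reticulum 0 were called by edgeR or DESeq2 in S1S2 or G9Gl (9.0% and 10.2% of all tested genes), and 4 had an unadjusted p under 0.05 in S1S2 and 5 in G9Gl, where 52.4% of all tested genes did. Under glmTreat the calls of P4ha3 in G9Gl and of both genes between the mutants were lost (adjusted p = 1 for P4ha3, 0.0859 for P3h2).

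Of the 11 tested genes that act outside the cell, 3 were called in S1S2 and 2 in G9Gl, beside 9.0% and 10.2% of all tested genes. Lox, the lysyl oxidase that cross-links fibrils, had 814, 786 and 868 CPM in WT, 308, 303 and 305 CPM in S1S2 and 782, 799.9 and 737 CPM in G9Gl. S1S2 lay below all others and G9Gl overlapped WT. Lox fell in S1S2 with a log2 fold change of -1.43 (adjusted p = 1.23e-13, SE 0.0427). Its relative Loxl4 rose there with a log2 fold change of 1.36 (adjusted p = 1.28e-11, SE 0.0821), from 36.6 ± 3.05 to 94.1 ± 5.06 CPM (SD, n = 3). Tll1, a procollagen C-proteinase, had 3.44, 2.78 and 3.58 CPM in WT, 0.413, 0.474 and 0.188 CPM in S1S2 and 48.2, 44.6 and 46.8 CPM in G9Gl. S1S2 was near 0 and G9Gl far above WT. Tll1 fell in S1S2 with a log2 fold change of -3.13 (adjusted p = 3.35e-09, SE 0.350) and rose in G9Gl with a log2 fold change of 3.83 (adjusted p = 2.76e-15, SE 0.116). The related proteinase Bmp1 had a log2 fold change of 0.29 (adjusted p = 2.45e-05, SE 0.0211) and 0.42 (adjusted p = 2.27e-07, SE 0.0319), under the fold limit, and Pcolce2, an enhancer of that cleavage, rose in G9Gl with a log2 fold change of 1.25 (adjusted p = 2.51e-09, SE 0.107), a call lost under glmTreat (adjusted p = 0.0187).

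Of the receptors, Itga2, a collagen-binding integrin subunit, was the 1 of 8 tested genes called in each comparison (9.0%, 10.2% and 13.1% of all tested genes), at low level. It passed the filter through its G9Gl libraries alone and was not tested in S1S2 against WT when the fit held the 6 libraries of those genotypes. Its WT libraries held 1 count in all, in WT replicate 3, and S1S2 had 0.230, 0.0728 and 0.235 CPM and G9Gl 0.561, 0.646 and 0.522 CPM. The ratio to WT was 15.97 (95% exact interval 2.36 to 683) in S1S2 and 53.9 (95% exact interval 9.24 to 2171) in G9Gl, with intervals that cover counting error only. Without WT replicate 3, WT held 0 counts, and the fitted log2 fold changes, which then depend on the prior count, moved from 3.54 to 5.27 in S1S2 and from 5.26 to 6.999 in G9Gl. With DESeq2 the calls in S1S2 against WT (adjusted p = 0.0126) and between the mutants (0.0399) were lost, as they were under glmTreat (0.0772 and 0.200). Without WT replicate 1 or 2 or S1S2 replicate 1 or 3 the adjusted p in S1S2 was 0.0221 to 0.0267, and the call between the mutants was lost without S1S2 replicate 2 or any 1 G9Gl library (0.0105 to 0.0429).

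**Figure D5:**
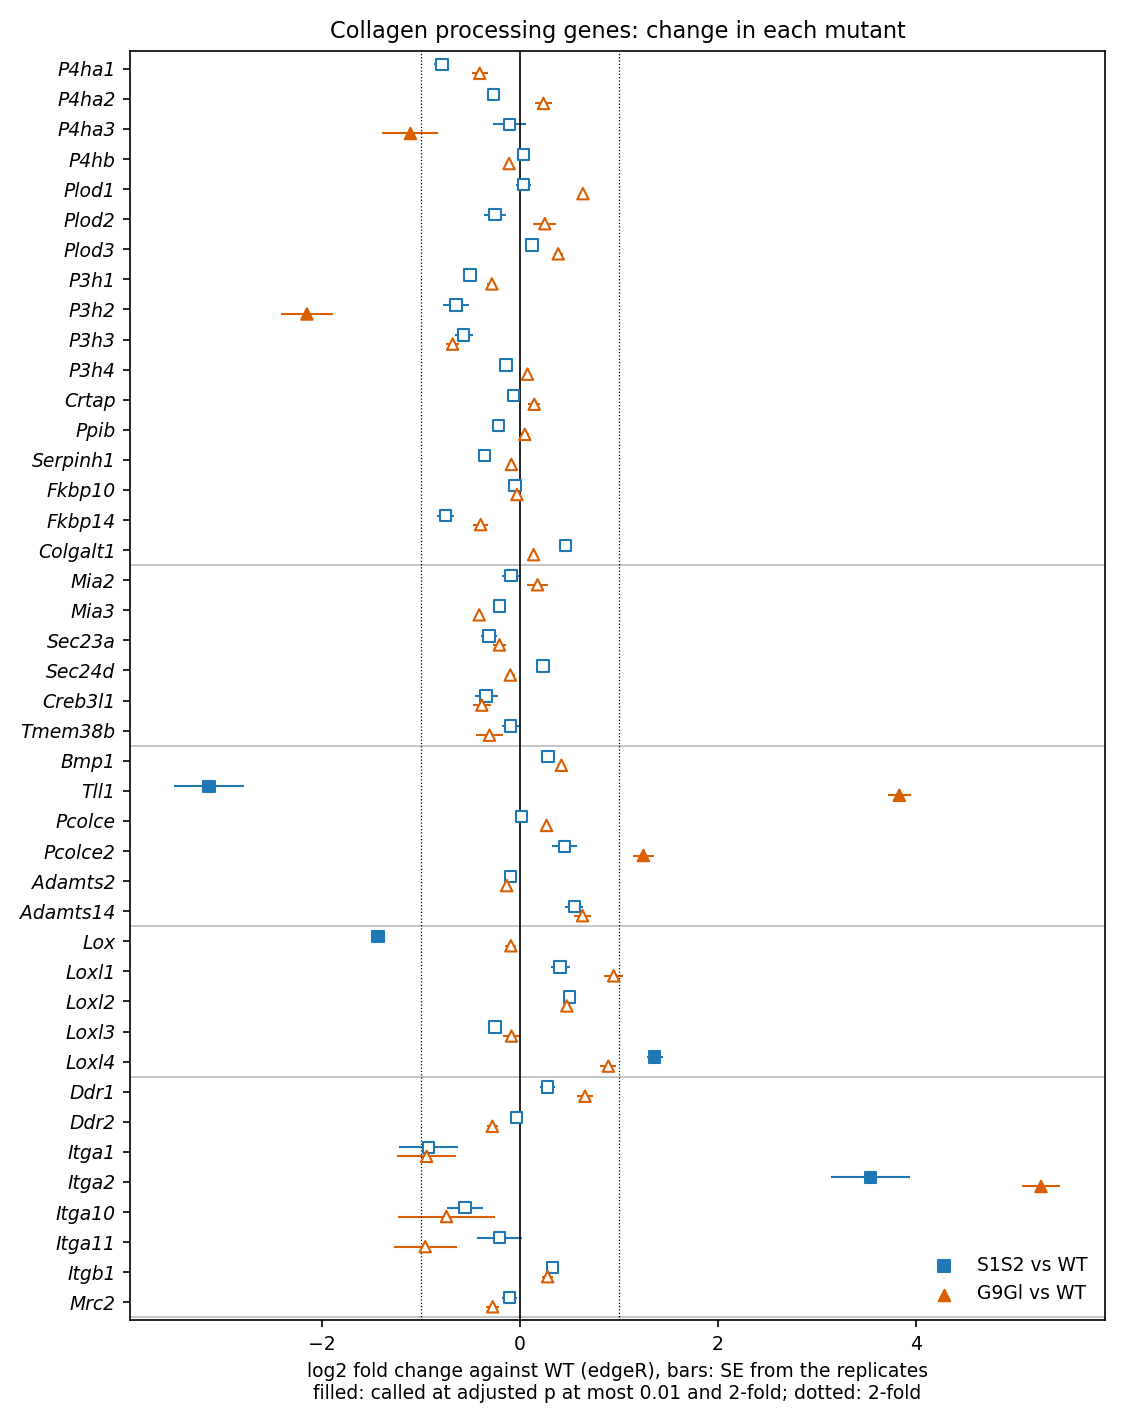
Log2 fold change against WT (horizontal axis) of the 42 tested collagen processing genes in the order of their roles, separated by lines, with SE bars from 3 libraries a genotype, squares for S1S2 and triangles for G9Gl. Filled symbols are called, 4 in S1S2 and 5 in G9Gl, and Tll1 moves to opposite sides.

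Markers of other cell types were under 10 CPM in every library except Runx2 and Tubb3, and several differed between genotypes. The 6 epithelial markers summed to 0.297 to 0.548 CPM in WT, 4.70 to 5.59 CPM in S1S2 and 4.21 to 5.38 CPM in G9Gl. Of the 6, 2 were tested, Krt8 rose in S1S2 and Krt14 in G9Gl, and Krt5 was at 0 throughout. Krt8 passed the filter on low counts through its S1S2 libraries alone and Krt14 through its G9Gl libraries alone. Each had to differ to be tested. The 4 endothelial markers summed to 0.123 to 0.193, 1.55 to 1.70 and 0.790 to 2.35 CPM, with Kdr higher in S1S2 and Cdh5 in G9Gl. Kdr likewise passed the filter through its S1S2 libraries alone and Cdh5 through its G9Gl libraries alone. The 4 skeletal muscle markers summed to 3.60 to 5.42, 2.70 to 3.99 and 11.6 to 12.2 CPM with Myod1 at 0 throughout. Des rose in G9Gl (log2 fold change 1.69), and Actn2 fell in S1S2 (-2.73) and rose in G9Gl (1.10). The 5 haematopoietic markers summed to 4.27 to 4.43, 3.21 to 4.04 and 4.31 to 4.63 CPM, nearly all Cd68. The 4 bone markers summed to 23.4 to 28.2, 20.1 to 26.3 and 21.2 to 24.6 CPM, nearly all Runx2, and the 4 neural markers to 24.4 to 25.8, 37.9 to 42.1 and 18.4 to 25.9 CPM, nearly all Tubb3. The 8 fibroblast markers summed to 3583 to 3970.1, 4430.1 to 4721 and 3284 to 3492 CPM, nearly all Vim, Fn1 and Fbn1. In S1S2 Vim had a log2 fold change of 0.72 (adjusted p = 1.40e-08), Fn1 of 0.09 and Fbn1 of -0.47, none of them called. Pdgfra, Pdgfrb and Dcn fell in both mutants, and Thy1 fell in S1S2 and rose in G9Gl. The part of these shifts in the collagen results was not tested.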

How the data were processed

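RNA-seq libraries of MEFs, 9 in all, were analysed, 3 per genotype. From 75 bp paired-end reads the authors, by their own methods, removed adapters with cutadapt 1.8.1. Alignment to GRCm38 used STAR 2.5.2b with the settings that TEtranscripts recommends, and TEtranscripts 2.0.3 did the counting. What was deposited are whole-number counts for each gene, without normalization. The annotation release and the strand setting of the counting are not given in the sources used here, so genes with overlapping neighbours are uncertain, and 39 of the 44 chains share 0% of their 75-mers with another gene.

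By Ensembl identifier 47310 of 47937 genes matched GENCODE M21 (GRCm38), and 627 did not. The quasi-likelihood test in edgeR 4.0.16 (R 4.3.3) was run on the counts after filterByExpr and TMM, in 1 fit of all 9 libraries, with Benjamini-Hochberg adjustment over 15540 genes. Limits of 0.01 for p and 2 for the fold are named in the study, which leaves unsaid whether p was adjusted, and here p was. SE come from log2 CPM with a prior count of 2, and the biological coefficient of variation was 5.36%. A group without counts was set to a floor of 3 counts over the group. Intervals and floors cover counting error only, since they rest on group totals without a term for the spread between replicates. PCR copies could not be told from separate molecules. Replicate libraries differed by more than counting noise (chi-square per degree of freedom 2.68 to 25.6).

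Named were chains called in any contrast, chains of at least 100 CPM in a genotype, types I, III and V, and of the processing list the called genes and 5 others. The members and lists were chosen with earlier results of these data known. Alternatives were DESeq2 1.42.0, its size factors within edgeR, fits with neither filter nor composition factor (1 at a time), an adjusted p of 0.05 without a fold limit, glmTreat, the 6 libraries compared, a replicate block, removal of chromosome medians, leaving out each library, and other scales of the sums. Promoters came from RefSeq (GRCm38.p6).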

Additional observations from a re-analysis of the deposited data

Results flagged for a closer look

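For 6 chains and 1 processing gene, both mutants differed from WT in opposite directions at an adjusted p of at most 0.01, and the direct contrast of G9Gl against S1S2 in edgeR was called as well. These are 6 of 25 tested chains and 1 of 42 processing genes, beside 509 of all 15540 tested genes (3.28%). Both comparisons with WT share the WT libraries, and each gene is therefore given by the direct contrast. The log2 fold change of G9Gl against S1S2 was 1.11 for Col5a2, 1.68 for Col4a5, 5.86 for Col6a3, 1.96 for Col8a1 and 2.94 for Col22a1, all higher in every G9Gl library than in every S1S2 library. For Col12a1 it was -1.86, with every G9Gl library lower. Tll1, the procollagen C-proteinase, had 6.96.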

How the results depend on the processing

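The counts of called chains against WT and between the mutants (12, 9 and 15) were the same with DESeq2. With the replicate block they were 12, 9 and 15, and those of processing genes 4, 5 and 5, and no call of a named gene changed. Same-numbered libraries had a mean correlation of 0.0121 in their deviations (-0.0686 to 0.124), so the numbers were not taken as pairs. An adjusted p of 0.05 without a fold limit gave 19, 22 and 22 chains and 29, 32 and 29 processing genes, and glmTreat gave 6 chains in S1S2 and 3 (G9Gl) and 2 (between) processing genes. Leaving out 1 library gave 11 to 13, 8 to 9 and 15 to 15 chains, and 3 to 4, 4 to 7 and 3 to 5 processing genes, the count between the mutants being 3 without S1S2 replicate 2, G9Gl replicate 1 or G9Gl replicate 2. Of 1526 alternative values of named genes, 1440 left the call as it was, 44 added a call and 42 removed one. The 0.05 limit without a fold limit gave 41 of the added calls, and glmTreat 17 of the removed ones. Both define a call in another way. Removing chromosome medians made Col5a2 in G9Gl (1.03) and Loxl4 in G9Gl (1.06) calls. Without WT replicate 3, Col4a6 was called in S1S2 (adjusted p = 0.00943).

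Of the sums per length, leaving out the chain with the highest mean CPM over the 3 genotypes (Col1a1, Col4a1, Col6a1, Col8a1 or Col12a1) moved the ratio to WT in S1S2 to 0.485 (all chains), 0.369 (fibrillar), 0.848 (basement membrane), 0.338 (type VI), 0.283 (short-chain) and 1.05 (FACIT). In G9Gl it moved to 1.08, 1.01 (fibrillar), 0.768, 0.104 and 1.46 for the same classes except basement membrane, so the all-chain, fibrillar and FACIT ratios crossed 1 upwards and the short-chain ratio, 2.82 with Col8a1, crossed it downwards. In G9Gl itself Col5a2 and Col16a1 were the highest fibrillar and FACIT chains per length, and sums without them were not computed. Over all exons the S1S2 ratios were 0.638 (all chains) and 0.590 (fibrillar), the all-chain ratio in G9Gl was 1.01 in CPM, and the FACIT ratio in G9Gl was 0.670 in CPM. With 1 library left out, the ratio in G9Gl of all chains ran from 0.961 to 1.03, that of basement membrane in S1S2 from 0.908 to 1.00, and that of Col4a2 to Col4a1 in G9Gl from 0.974 to 1.01. The cause of these shifts was not tested. Chains near the floor, such as Col11a1, Col4a6 and Col8a2, are limited by depth.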
